A study of Mus musculus with 32 samples.

Results

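The report concerns the effect of FAAH S268D on the NASH diet, read in 16 of the 32 whole-liver RNA libraries of the series. The 2 groups were taken by their labels. FAAH S268D NASH held 8 libraries from mice that carry the S268D substitution in fatty acid amide hydrolase and received the NASH diet. WT NASH held 8 libraries from wild-type mice on the same diet. Feeding lasted 28 weeks. The series text names the chow HFFC, and the labels distinguish NASH from NASH-AA, which had ARA added. Both groups compared here received NASH, and the 16 NASH-AA libraries, 8 FAAH S268D and 8 WT, are used only to set values side by side. The labels give no strain, age or sex, and they do not say that replicates came from separate animals. The p-values therefore measure only the spread between these libraries, which may be technical.

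Fatty acid amide hydrolase (FAAH) is a membrane enzyme that hydrolyses fatty acid amides. Its substrates include the endocannabinoid anandamide and the N-acyl taurines, in which a fatty acid such as arachidonic acid is joined to taurine. In mice the S268D substitution is known to impair the hydrolysis of N-acyl taurines while leaving that of anandamide largely intact. In livers on a diet that gives steatohepatitis, macrophages and other leukocytes accumulate, stellate cells lay down matrix and hepatocytes store fat. The comparison asks what the substitution did to the liver transcriptome in that setting, on the diet without added ARA.

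Faah lies on chromosome 4 of GRCm38 at chr4:115967145-116017926, on the minus strand. Its transcript Faah-201 has 15 exons and a coding length of 1737 bases. The codon replaced in the mutant lies in exon 6 at chr4:116004736-116004738. The wild-type reference sequence around it, 63 bases of the transcript read from the GENCODE transcripts of GRCm38, is printed because it places the one difference by which the groups are defined. The serine codon is in capitals. The altered allele was not read, since the files hold counts per gene.
Faah S268D codon: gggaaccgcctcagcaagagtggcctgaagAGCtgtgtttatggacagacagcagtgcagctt

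Expression is given as normalised CPM, a gene's share of its library's counts scaled to a common library size by the trimmed mean of M values. A difference is a log2 fold change, FAAH S268D minus WT, with its standard error. A gene passed when its adjusted p, the Benjamini-Hochberg adjusted p of limma-voom over all 14395 genes tested, was under 0.05. Total counts ran from 21349261 to 26662506 in 7 FAAH S268D NASH libraries, against 20653724 to 24872898 in the 8 WT NASH libraries. The eighth, FAAH S268D NASH replicate 1, held 3851388 counts, so 1 CPM stands there for about 4 counts. The libraries held the genes of liver: 25 hepatocyte markers summed to 87917 to 140418 CPM in FAAH S268D libraries and to 80138 to 115680 CPM in WT libraries. Markers of skeletal muscle summed to at most 0.869 CPM in FAAH S268D and 1.17 CPM in WT libraries, and those of kidney and adrenal to at most 1.27 CPM in FAAH S268D and 1.20 CPM in WT. All 16 libraries held the Y-linked Ddx3y (15.6 to 42.4 CPM in FAAH S268D and 24.4 to 38.4 CPM in WT), and Xist reached at most 0.0969 CPM in FAAH S268D and 0.125 CPM in WT.

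The libraries were not equally alike within their groups. On the first principal component, 33.5% of the variance, FAAH S268D NASH replicates 1 to 4 lay between 27.3 and 49.1 and replicates 5 to 8 between -22.1 and 2.16. The WT NASH libraries lay between -38.4 and -6.21, except replicate 5 at 13.98. Over genes, the median standard deviation of log2(CPM + 0.5) was 0.279 in FAAH S268D and 0.184 in WT, and it was larger in FAAH S268D for 81.1% of genes. The FAAH S268D group includes the shallow replicate 1, which lay at -63.5 on the second component, against -16.1 to 23.8 in the other libraries. Its weight by estimated quality was the lowest of the 16 (0.314), and its part in the larger spread was not tested. The labels also carry a library number from 1 to 32 with no stated meaning. FAAH S268D NASH replicates 1 to 5 and WT NASH replicates 1 to 4 have numbers from 1 to 16, and the other 7 libraries have numbers from 17 to 32. Values within each range are given below for some of the genes and lists.

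Of the 14395 genes, 67 passed (0.465%), 23 higher (0.16%) and 44 lower (0.306%) in FAAH S268D. At an unadjusted p under 0.05 there were 2914 genes (20.2%), 1206 higher and 1708 lower. This count rested on single libraries. Leaving out WT NASH replicate 5 gave 1334 genes (9.31%) and leaving out FAAH S268D NASH replicate 5 gave 958 (6.7%). Leaving out any 1 of another 11 libraries lowered it to between 34 and 43. Weighting libraries by their estimated quality gave 1341 genes (9.32%), and a fit that took the spread from all 32 libraries gave 1371 (9.2%), 432 higher and 939 lower. All 67 genes also passed in these last 2 fits, and 65 of them passed in each of the 2 fits without a replicate 5. The fit of 32 libraries takes 1 spread for groups that differ in spread. Its counts here and below may therefore be too high, which was not tested. Scaling by total counts alone gave 52 genes, 11 higher and 41 lower. Within library numbers 1 to 16 alone 12 genes passed, and within 17 to 32 alone 2 passed. Of the 35 genes past the threshold that are named below, 23 also passed in every fit that left out 1 library and tested them. Among these 23, Htr1d and Hdac1-ps were tested in only 8 of the 16 fits. Utp11 passed in 15 of 16 such fits. Cd52, Fblim1, Ifi30, Lilr4b, Mecr, Myc, Neu2, Sdhb, Sirpb1c, Slc16a11 and Spns2 passed in 3 to 6 of the 16.

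Of the 67 genes that passed in the 16 libraries, 37 lay around Faah itself. Within 40 Mb of it, 585 genes were tested and these 37 passed (6.32%), 14 higher and 23 lower, at distances from -19.5 to 25.6 Mb. Of the other 312 genes of chromosome 4, 0 passed, with 31 in the fit of 32 libraries (9.97%), and on the other chromosomes 30 of 13498 did (0.222%). In the fit of 32 libraries 117 genes passed within 40 Mb (20%) and 1206 on the other chromosomes (8.94%), and on NASH-AA 78 passed within 40 Mb (13.7%) and 541 on the other chromosomes (4.12%). Groups that did not overlap at all were seen for 30 of the 14395 genes tested (0.208%), and 19 of these were among the 37. The 37 were picked by p in the same libraries, so a high share without overlap is a description.

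**Figure D1:**
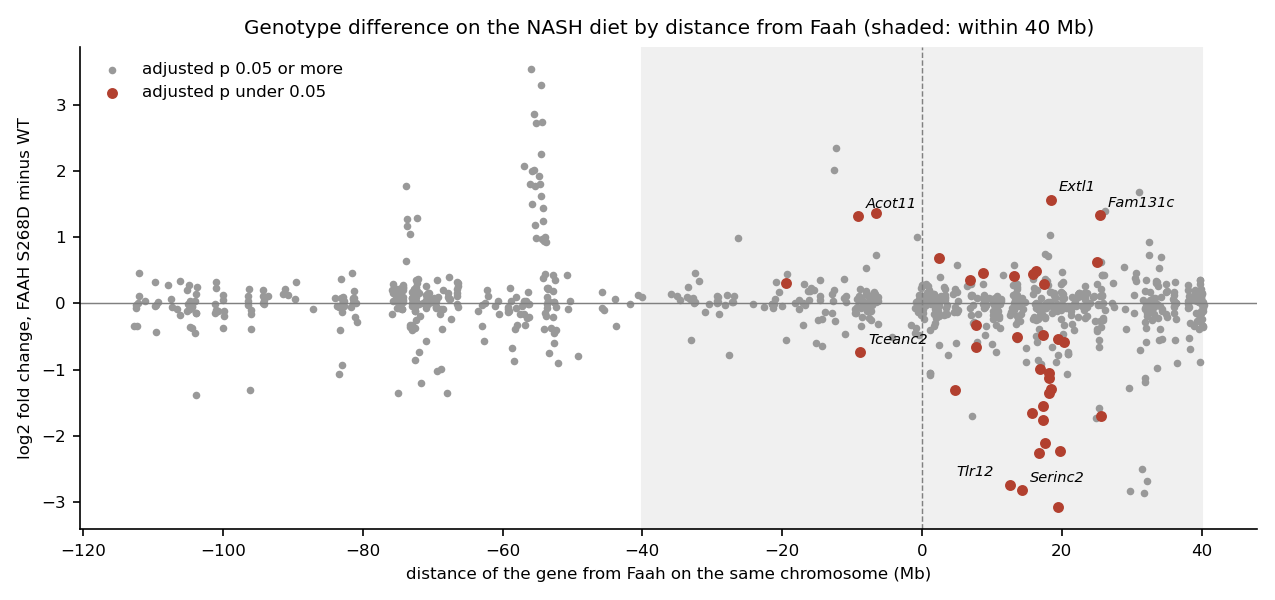
Log2 fold change (FAAH S268D minus WT, NASH diet) of each gene tested on chromosome 4 except Htr1d, against its distance from Faah in Mb, with the genes within 40 Mb shaded and those past the threshold in red. The 36 red points lie between -19.5 and 25.6 Mb, and most of the grey points far to the left at log2 fold changes above 2 are major urinary protein genes.

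Faah itself had slightly higher values in the mutant livers. Its level was 166, 189 and 232 CPM in FAAH S268D (lowest, median and highest of 8 here and below), against 137, 154 and 190.2 CPM in WT. All FAAH S268D libraries lay above the WT median, and WT replicate 5, at 190 CPM, was the WT library that lay among them. The difference was 0.28 ± 0.07 and did not pass (adjusted p = 0.0811), but it passed in the fit of 32 libraries (adjusted p = 0.00677) and without either replicate 5 (adjusted p = 0.00988 without WT replicate 5 and 0.0373 without FAAH S268D replicate 5). These 2 fits without a replicate 5 were those in which far more genes passed (1334 and 958, against 67). The adjusted p of Faah in the other fits that left out 1 library is not given here. The difference was 0.30 ± 0.11 within library numbers 1 to 16 and 0.26 ± 0.12 within 17 to 32. A substitution need not change the amount of a transcript, so this level does not check the labels.

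Among the genes near Faah that were lower, Cep85, which encodes a centrosomal protein, had the smallest p. Cep85 (chr4:134129858-134187112) was at 14.2, 16.7 and 18.7 CPM in FAAH S268D livers, against 33.2, 36.2 and 43.8 CPM in WT livers. The groups did not overlap, with every FAAH S268D library below every WT library (-1.13 ± 0.07, adjusted p = 2.51e-08). Tlr12, a Toll-like receptor that in mice senses profilin of protozoan parasites, showed a larger fold. Its level (chr4:128615443-128618619) was 2.97, 4.65 and 8.20 CPM in FAAH S268D and 22.6, 34.2 and 40.9 CPM in WT, again without overlap (-2.74 ± 0.19, adjusted p = 1.96e-07). Serinc2, of the serine incorporator family, also fell without overlap (-2.82 ± 0.31, adjusted p = 8.64e-05).

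Lower too were Sytl1, of the synaptotagmin-like trafficking proteins (-1.77 ± 0.18), Il22ra1, the receptor subunit for interleukin 22 (-2.24 ± 0.39), and Stmn1, the microtubule-destabilising stathmin (-1.29 ± 0.17). The groups did not overlap for any of these 3 genes. Tceanc2, related to transcription elongation factors, was lower without overlap (-0.74 ± 0.09), and Fblim1, a filamin-binding adaptor (-1.70 ± 0.33), and Map3k6, a stress kinase (-1.55 ± 0.27), were lower with overlap. Cd52, a glycoprotein on the surface of leukocytes, belongs to this stretch as well and was at 3.25, 6.55 and 13.03 CPM in FAAH S268D and 6.60, 17.4 and 22.8 CPM in WT (-1.35 ± 0.28, adjusted p = 0.0415). It passed in 3 of the 16 fits that left out 1 library, with adjusted p up to 0.114 without FAAH S268D replicate 4.

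Of the genes near Faah that were higher, Extl1 and Acot11 are described first. Htr1d, given below, had a smaller adjusted p than both, and Ttc39aos1 a smaller one than Acot11. Extl1 encodes an exostosin-like glycosyltransferase and stood at 28.7, 36.4 and 53.5 CPM in FAAH S268D and 8.62, 11.2 and 21.3 CPM in WT, without overlap (1.57 ± 0.17, adjusted p = 8.64e-05). Acot11, an acyl-CoA thioesterase that releases free fatty acids (chr4:106744555-106804998), was at 50.05, 66.4 and 83.7 CPM in FAAH S268D and 18.1, 24.5 and 44.1 CPM in WT, likewise without overlap (1.32 ± 0.18, adjusted p = 0.000988). Both were higher within library numbers 1 to 16 (Extl1 1.69 ± 0.21, Acot11 1.26 ± 0.24) and within 17 to 32 (Extl1 1.42 ± 0.25, Acot11 1.45 ± 0.25).

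Sdhb, the iron-sulfur subunit of succinate dehydrogenase, rose less, with 165, 228 and 311 CPM in FAAH S268D and 123, 152 and 169 CPM in WT (0.63 ± 0.13, adjusted p = 0.0371). The FAAH S268D libraries 1 to 4 carried the highest Sdhb levels and replicate 5 lay inside the WT range. Sdhb passed in 4 of the 16 fits that left out 1 library, with adjusted p up to 0.0933 without WT replicate 7. Mecr, the reductase of mitochondrial fatty acid synthesis (0.44 ± 0.09), Hyi, a hydroxypyruvate isomerase (0.68 ± 0.11), and Yars, the tyrosyl-tRNA synthetase (0.42 ± 0.07), rose as well. So did Rcc1, the exchange factor of Ran (0.49 ± 0.09), Utp11, a factor of ribosome assembly (0.46 ± 0.08), and Fam131c (1.33 ± 0.24). Ttc39aos1, an antisense RNA, also rose (1.36 ± 0.18), but the use of strand in counting is not known and its reads cannot be told apart from those of its antisense partner.

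A serotonin receptor gene and 2 pseudogenes, which the rule for named genes leaves out, were chosen after their values were seen. The receptor gene, Htr1d, lies 20.5 Mb from Faah and had from 8 to 81 counts in every FAAH S268D NASH library and 0 in all 8 WT NASH libraries together. Set against a floor of 3 counts over the WT group, it was at least 116.8-fold higher at a mean of 1.78 CPM. On NASH-AA it had 16 to 59 counts in each FAAH S268D library, against 2 counts in 1 WT library and none in the other 7. Htr1d could be tested only through its counts in FAAH S268D libraries, so its separation of the groups is a description.

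Ndufs5, a subunit gene of respiratory complex I near Faah, fell (-0.66 ± 0.12), while its processed pseudogene on chromosome 16, Ndufs5-ps, was at 17.5, 20.7 and 30.97 CPM in FAAH S268D and 0.161, 0.504 and 1.14 CPM in WT (5.42 ± 0.30, adjusted p = 1.65e-08). Hdac1, a histone deacetylase gene near Faah, and Hdac1-ps on chromosome 17 showed the same pair of directions (Hdac1 -0.50 ± 0.08, Hdac1-ps 2.31 ± 0.19). Hdac1-ps, like Htr1d, was tested in only 8 of the 16 fits that left out 1 library, so its difference is also a description. Reads of a gene and a near-identical copy may be divided between them, so the levels of these 4 are uncertain.

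Beyond the surroundings of Faah, 21 of the 30 genes that passed were lower and 9 higher. Csad, which encodes cysteine sulfinate decarboxylase, the enzyme of taurine synthesis, was the one that passed among 16 tested genes of FAAH, N-acyl amide and taurine metabolism. Csad (chr15:102176999-102204724) was at 67.1, 80.7 and 143 CPM in FAAH S268D and 115, 181 and 223 CPM in WT. FAAH S268D replicates 2 to 4 were lowest, at 67.1 to 68.8 CPM, and replicate 8, at 143 CPM, lay within the WT range. The fall was 0.999 on the log2 scale (SE 0.17, adjusted p = 0.00773), with -1.35 ± 0.14 in library numbers 1 to 16 and -0.53 ± 0.25 in 17 to 32. Cdo1 and Slc6a6, other genes of taurine handling, named after their values were seen, did not pass. The value was 0.20 ± 0.13 (adjusted p = 0.376) for Cdo1, the dioxygenase that makes the substrate of Csad, and -0.26 ± 0.13 (adjusted p = 0.289) for Slc6a6, the taurine transporter. Pm20d1, which makes N-acyl amino acids, did not pass either (0.33 ± 0.11, adjusted p = 0.123). The list had a median of 0.13, with 10 of 16 members positive.

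Myc and the chemokine gene Ccl3 were lower. Myc, the growth-promoting transcription factor, was at 2.73, 6.70 and 13.8 CPM in FAAH S268D and 9.53, 23.3 and 28.3 CPM in WT (-1.60 ± 0.32, adjusted p = 0.0328). FAAH S268D replicate 5 was the highest of its group and WT replicate 5 the lowest of its own, and these 2 groups overlapped only through them and WT replicate 4. Myc passed in 5 of the 16 fits that left out 1 library, with adjusted p up to 0.0854 without FAAH S268D replicate 4. Ccl3, a chemokine of macrophages that draws in leukocytes, was scarce, at 0, 0.328 and 0.652 CPM in FAAH S268D and 0.627, 1.28 and 2.09 CPM in WT (-2.08 ± 0.36, adjusted p = 0.0106). The highest FAAH S268D library exceeded the lowest WT library, replicate 5, by little. Also lower were the leukocyte receptors Lilr4b (-1.40 ± 0.29) and Sirpb1c (-1.27 ± 0.27) and the antigen-processing thiol reductase Ifi30 (-0.74 ± 0.15). The 24 macrophage and monocyte markers described below summed to 428 to 909 CPM in FAAH S268D libraries and to 649.9 to 1583 CPM in WT libraries, and their part in the differences of these leukocyte genes was not tested. Enpp6, a phosphodiesterase, fell without overlap (-1.22 ± 0.20, adjusted p = 0.00852). The named genes that rose outside chromosome 4, pseudogenes apart, were 3: Neu2, a cytosolic sialidase (0.58 ± 0.12), Spns2, an exporter of sphingosine 1-phosphate (0.49 ± 0.10), and Slc16a11, of the monocarboxylate transporters (0.42 ± 0.09).

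**Figure D2:**
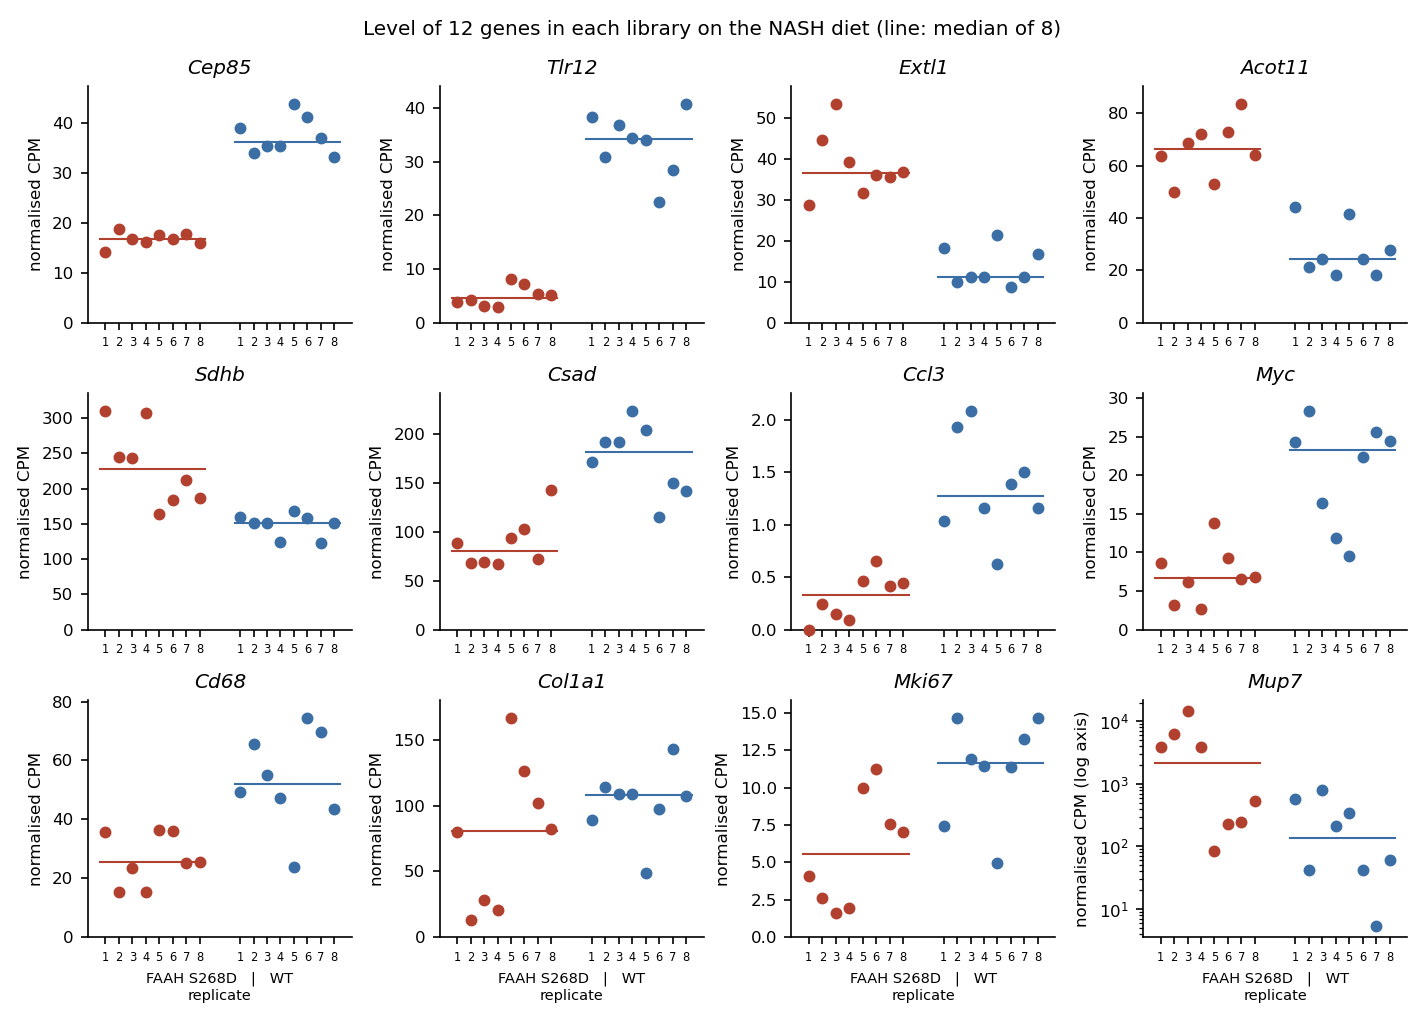
Normalised CPM of 12 genes in each library on the NASH diet, FAAH S268D (red) left of WT (blue), replicates 1 to 8 in order, with the median of each group as a line and a log axis for Mup7. Cep85, Tlr12, Extl1 and Acot11 separate the groups fully. Cd68, Col1a1, Mki67 and Mup7 do not.

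Most leukocyte genes, those of B and plasma cells apart, had negative values in FAAH S268D livers, but in the 16 libraries few of them passed. Of 24 genes of macrophages and monocytes, all 24 had a negative log2 fold change, with a median of -0.88 beside 0.00 over all genes tested. A negative value was seen for 49.5% of all genes. Of the 24, 1 passed, Cd52, and 21 had an unadjusted p under 0.05 in the lower direction, against 11.9% of all genes. In the fit of 32 libraries 19 of the 24 passed as lower, against 6.3% of all genes, and without WT replicate 5 it was also 19, against 6.96% of all genes. The list median was -1.06 in library numbers 1 to 16 and -0.66 in 17 to 32. In bulk tissue, fewer cells of a type and less RNA per cell cannot be told apart.

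Cd68, the lysosomal marker of macrophages, was at 15.1, 25.4 and 36.5 CPM in FAAH S268D and 23.6, 52.1 and 74.5 CPM in WT (-1.05 ± 0.24, adjusted p = 0.0622). WT replicate 5, at 23.6 CPM, lay below the FAAH S268D median, and every other WT library was above all 8 FAAH S268D libraries. Without that library the adjusted p was 0.00262, in a fit where 1334 genes passed (9.31%), against 67 in the 16 libraries. Leaving out the WT library that lay among the other group was bound to lower the p, so this value is a description. Mpeg1, a pore-forming protein of macrophages, and Fcer1g, a signalling chain of Fc receptors, also missed the threshold (Mpeg1 -0.67 ± 0.15, adjusted p = 0.0563, and Fcer1g -0.88 ± 0.21, adjusted p = 0.073).

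Genes of lipid-associated macrophages, the cells that gather around fat-laden hepatocytes, had a median of -0.72, with 13 of 15 members negative and 0 past the threshold. In the fit of 32 libraries 9 were lower, against 6.3% of all genes, and the median was -1.35 in library numbers 1 to 16 and -0.34 in 17 to 32. Mmp12, a macrophage elastase, gave the widest span. It was at 0.628, 20.3 and 37.98 CPM in FAAH S268D and 11.7, 54.1 and 88.4 CPM in WT (-2.47 ± 0.70, adjusted p = 0.0856). FAAH S268D replicates 2 to 4 held 0.628 to 3.01 CPM, while the other 5 held 19.8 to 38.0 CPM, and WT replicate 5 held 11.7 CPM. Trem2, the lipid receptor that marks these cells, did not pass (-1.53 ± 0.59, adjusted p = 0.159), nor did Lpl, lipoprotein lipase (-1.29 ± 0.33, adjusted p = 0.0759).

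Resident Kupffer cell genes had a median of -0.53 with 13 of 15 negative and 0 past the threshold. Clec4f, which only Kupffer cells express in mouse liver, did not pass (-0.32 ± 0.22, adjusted p = 0.418). The scavenger receptor-like Cd5l and the complement gene C1qc lay nearer to the threshold (Cd5l -0.78 ± 0.20, adjusted p = 0.0777, and C1qc -0.76 ± 0.19, adjusted p = 0.0759). C1qc, with C1qa of the same list, lies 20.9 Mb from Faah, so it also belongs to the genes near Faah.

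Antigen presentation and T cell genes were also mostly negative. Of 11 genes of MHC class II presentation all 11 were negative (median -1.09), and Ifi30 alone passed, with 9 lower in the fit of 32 libraries, against 6.3% of all genes. Ctss, the protease that trims the invariant chain, did not pass (-0.94 ± 0.27, adjusted p = 0.0852). Dendritic cell genes had a median of -0.69 with 10 of 12 negative. Clec9a, a receptor of cross-presenting dendritic cells, came nearest (-0.72 ± 0.16, adjusted p = 0.0519), followed by the costimulatory Cd86 (-0.84 ± 0.19, adjusted p = 0.0563).

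Genes of T and NK cells had a median of -0.83 with 12 of 13 negative. Cd8a was at 0.0471, 0.334 and 2.03 CPM in FAAH S268D and 0.476, 1.39 and 3.10 CPM in WT (-2.08 ± 0.59, adjusted p = 0.0852), where FAAH S268D replicate 1, the shallow library, was the highest of its group. Trac, the T cell receptor alpha constant gene, did not pass (-0.99 ± 0.31, adjusted p = 0.104). B and plasma cell genes had a median of 0.01 with 9 of 11 positive, and neutrophil genes had a median of -0.98 with 5 of 5 negative and 0 past the threshold.

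Chemokines and their receptors had 21 of 23 negative and a median of -0.97. Ccl3 was the member that passed, 18 had an unadjusted p under 0.05 in the lower direction, against 11.9% of all genes, and 12 passed as lower in the fit of 32 libraries, against 6.3% of all genes. The list median was -1.33 in library numbers 1 to 16 and -0.45 in 17 to 32. Ccl4, the neighbour and close relative of Ccl3, did not pass (-2.31 ± 0.56, adjusted p = 0.073). Ccl2, which draws monocytes, stood at 0.484, 2.63 and 4.06 CPM in FAAH S268D and 1.80, 5.71 and 8.96 CPM in WT (-1.59 ± 0.44, adjusted p = 0.084). The interferon-induced Cxcl10 did not pass (-0.97 ± 0.23, adjusted p = 0.066). For Ccl2 the difference was -2.48 ± 0.48 in library numbers 1 to 16 and -0.55 ± 0.46 in 17 to 32, and for Cxcl10 it was -1.45 ± 0.26 in numbers 1 to 16 and -0.43 ± 0.25 in 17 to 32.

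Cytokine, inflammasome and adhesion genes had 22 of 24 negative and a median of -0.72, with 0 past the threshold and 14 lower in the fit of 32 libraries, against 6.3% of all genes. Their median was -0.999 in library numbers 1 to 16 and -0.35 in 17 to 32. Tnf itself did not pass (-0.79 ± 0.43, adjusted p = 0.305). Icam1, an adhesion molecule of endothelium and leukocytes (-0.80 ± 0.18, adjusted p = 0.0647), and Il1rn, the interleukin 1 receptor antagonist (-1.22 ± 0.29, adjusted p = 0.0716), came nearer to the threshold. Interferon response genes had a median of -0.35 with 30 of 33 negative, led by Gbp2, an interferon-induced GTPase (-1.08 ± 0.24, adjusted p = 0.0568). Lysosomal genes had a median of -0.24 with 21 of 25 negative.

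**Figure D3:**
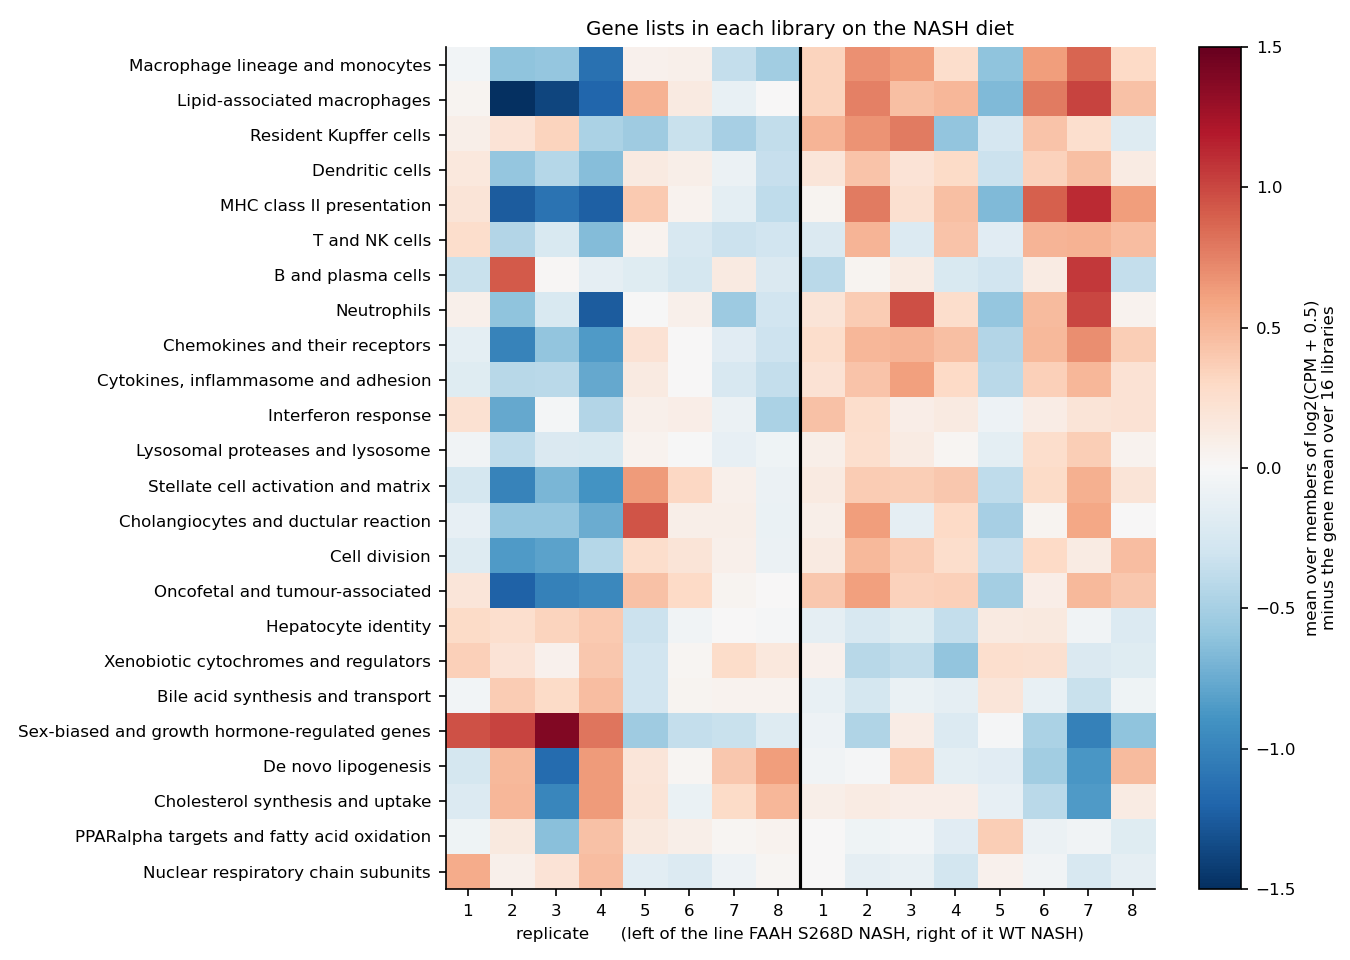
Mean over the tested members of a list of log2(CPM + 0.5) minus each gene's mean over the 16 libraries, by list (rows) and library (columns), with FAAH S268D left of the line and WT right of it. FAAH S268D replicates 2 to 4 are lowest on most leukocyte, matrix and division lists, and WT replicate 5 is below 0 on the same lists.

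The score of the macrophage and monocyte list in single libraries, on the scale of log2(CPM + 0.5) about the gene mean, was -1.12, -0.44 and 0.08 in FAAH S268D (lowest, median and highest) and -0.61, 0.48 and 0.87 in WT. WT replicate 5 was the lowest WT library, and the other 7 WT libraries lay above all 8 FAAH S268D libraries. The matrix list overlapped far more, at -1.01, -0.18 and 0.64 in FAAH S268D and -0.38, 0.33 and 0.53 in WT.

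Stellate cell and matrix genes were negative in 36 of 36 cases, with a median of -0.46 and 0 past the threshold. Of the 36, 12 had an unadjusted p under 0.05 in the lower direction, against 11.9% of all genes. In the fit of 32 libraries 4 of the 36 were lower, against 6.3% of all genes. The ranges of library numbers gave different values, with a median of -0.79 in 1 to 16 and -0.03 in 17 to 32. Col1a1, the main fibrillar collagen gene, was at 12.7, 80.95 and 167 CPM in FAAH S268D and 48.97, 108 and 143 CPM in WT (-0.84 ± 0.47, adjusted p = 0.322). FAAH S268D replicates 2 to 4 held 12.7 to 28.5 CPM, and replicate 5 held 167 CPM, more than any WT library. Timp1, an inhibitor of matrix proteases, did not pass (-1.48 ± 0.52, adjusted p = 0.134).

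Cell division genes had 30 of 32 negative and a median of -0.67, with 0 past the threshold and 11 lower in the fit of 32 libraries, against 6.3% of all genes. Mki67 was at 1.60, 5.55 and 11.2 CPM in FAAH S268D and 4.93, 11.7 and 14.7 CPM in WT (-1.12 ± 0.38, adjusted p = 0.123). FAAH S268D replicates 1 to 4 were below every WT library, and replicates 5 to 8 were not. Top2a, the topoisomerase of dividing cells, did not pass (-0.95 ± 0.32, adjusted p = 0.119). The median of the list was -1.15 in library numbers 1 to 16 and -0.12 in 17 to 32.

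Cholangiocyte and ductular genes had a median of -0.34 with 13 of 17 negative, and Krt19, the keratin of bile ducts, did not differ detectably (-0.04 ± 0.41, adjusted p = 0.968). Sinusoidal endothelial genes had a small negative median (-0.10), with 15 of 21 negative, against 49.5% of all genes.

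Hepatocyte genes had small positive values. Of 25 genes of hepatocyte identity, 22 were positive with a median of 0.27, 0 passed, and in the fit of 32 libraries 5 were higher, against 2.9% of all genes, and 1 lower. Alb, the albumin gene, was at 39099.9, 48379 and 68930.5 CPM in FAAH S268D and 32309.6, 40554 and 52908 CPM in WT (0.25 ± 0.13, adjusted p = 0.289). Cyp3a11, a cytochrome of drug and bile acid metabolism, did not pass at a negative value (-0.75 ± 0.22, adjusted p = 0.0862). The list median was 0.48 in library numbers 1 to 16 and -0.01 in 17 to 32. The list of xenobiotic cytochromes and their regulators, which also holds Cyp3a11, was mostly positive (25 of 32, median 0.36), as Cyp2f2 was (0.73 ± 0.18, adjusted p = 0.073).

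Genes of bile acid synthesis and transport had a median of 0.22 with 21 of 26 positive. Slc27a5, which activates bile acids for conjugation, came nearest (0.49 ± 0.13, adjusted p = 0.0782), and Cyp7a1, the rate-limiting enzyme of their synthesis, did not pass (0.32 ± 0.42, adjusted p = 0.703). Khk, the fructokinase, did not pass either (0.50 ± 0.14, adjusted p = 0.084). Acute-phase genes were mixed (11 of 25 positive, median -0.21), and Saa1, a serum amyloid gene, varied widely in both groups (-0.79 ± 0.52, adjusted p = 0.394).

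The lists of lipid genes described here held no gene past the threshold. De novo lipogenesis had 16 of 20 members positive and a median of 0.26. Fasn, the fatty acid synthase gene, ran over 141, 1469 and 2629 CPM in FAAH S268D and 243, 874 and 2087 CPM in WT (0.42 ± 0.54, adjusted p = 0.692). FAAH S268D replicate 3 was the lowest of all 16 libraries for Fasn, and replicate 4 the highest. Scd1, the stearoyl-CoA desaturase gene, did not differ detectably (0.15 ± 0.33, adjusted p = 0.836). The list median was -0.09 in library numbers 1 to 16 and 0.73 in 17 to 32.

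Cholesterol synthesis genes had 21 of 25 positive and a median of 0.27, which was 0.01 in library numbers 1 to 16 and 0.67 in 17 to 32. Mvk, mevalonate kinase (0.38 ± 0.10, adjusted p = 0.0782), and Sqle, squalene epoxidase (-0.27 ± 0.55, adjusted p = 0.816), did not pass. PPARalpha targets and oxidation genes had a median of 0.11 with 25 of 40 positive, and Cyp4a14, a fatty acid hydroxylase induced by PPARalpha, had a value near 0 with a wide error (0.01 ± 0.65, adjusted p = 0.996). Lipid droplet genes had a median of 0.12. Plin2, the main droplet coat protein of hepatocytes, was near 0 (0.04 ± 0.22, adjusted p = 0.935), and G0s2, an inhibitor of triglyceride lipase, did not pass at a positive value (0.82 ± 0.27, adjusted p = 0.113). Apolipoprotein genes had a median of 0.18, and Apoa4, which rises with hepatic fat in mice, did not pass (-0.41 ± 0.45, adjusted p = 0.639).

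Genes of polyunsaturated fatty acid synthesis and phospholipid remodelling had a median of -0.12, and those of eicosanoid synthesis and receptors -0.31. Pla2g7, a phospholipase of macrophages, was the nearest of these lists to the threshold (-1.09 ± 0.24, adjusted p = 0.0573).

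Nuclear genes of the respiratory chain had small positive values. Of 52 tested, 51 were positive with a median of 0.24, 32 had an unadjusted p under 0.05 in that direction, against 8.38% of all genes, and 1 passed, Ndufs5, which was lower. In the fit of 32 libraries 10 were higher, against 2.9% of all genes, and 1 was lower. Within library numbers 1 to 16 the median was 0.37, and within 17 to 32 it was 0.04. In single libraries the score of the respiratory chain list was 0.07 to 0.56 in FAAH S268D replicates 1 to 4, highest in the shallow replicate 1. It was -0.20 to 0.03 in replicates 5 to 8, inside the WT range of -0.27 to 0.07. Citrate cycle and complex II genes had a median of 0.13 with 22 of 23 positive, and Sdhb was the one that passed.

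Zonal hepatocyte genes leaned to positive values without any member passing in the 16 libraries. Periportal and urea cycle genes had a median of 0.31 with 17 of 20 positive, and in the fit of 32 libraries 6 were higher, against 2.9% of all genes, and 1 was lower. Otc, the urea cycle enzyme that makes citrulline (0.43 ± 0.13, adjusted p = 0.1), and Arg1, which releases urea (0.43 ± 0.15, adjusted p = 0.121), did not pass. The list median was 0.48 in library numbers 1 to 16 and -0.01 in 17 to 32. Pericentral genes had a median of 0.17 with 17 of 19 positive, among them Cyp1a2, a cytochrome of drug metabolism (0.63 ± 0.24, adjusted p = 0.154). Genes of gluconeogenesis and glucose handling had a median of 0.19 with 13 of 21 positive, and complement and coagulation genes 0.14 with 24 of 32 positive.

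Stress and tumour-associated lists gave no member past the threshold. Oncofetal and tumour-associated genes had 14 of 15 negative with a median of -0.59, which was -1.10 in library numbers 1 to 16 and 0.07 in 17 to 32. Cd44, a hyaluronan receptor found on many leukocytes as well, was one of them (-0.90 ± 0.26, adjusted p = 0.0856). p53 targets had 13 of 17 negative (median -0.24), with Pmaip1, a pro-apoptotic BH3 protein, nearest to the threshold (-0.86 ± 0.23, adjusted p = 0.0782). Genes of the NRF2 and antioxidant response had 18 of 27 negative (median -0.11), and Hmox1, heme oxygenase, did not pass (-0.59 ± 0.17, adjusted p = 0.0936). The unfolded protein and stress response list was even, with 13 of 27 positive and Hspa1b, an inducible heat shock protein, at -0.82 ± 0.23 (adjusted p = 0.0862). Iron genes had a median of -0.05, with the iron exporter gene Slc40a1 at -0.33 ± 0.10 (adjusted p = 0.0975), and circadian clock genes had a median of 0.13.

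Markers of tissues and cells outside the hepatocyte and leukocyte classes gave 0 genes past the threshold. Cytosolic ribosomal protein genes had a median of 0.04 and mitochondrially encoded subunits 0.10. Erythroid genes had a median of -0.16 over 5 tested, mesothelial genes -0.04 over 5 and adipocyte genes -0.37 over 6, with the fatty acid binding protein gene Fabp4 at -0.44 ± 0.22 (adjusted p = 0.271). Adipocyte markers summed to 77.3 to 331 CPM in FAAH S268D libraries and to 189 to 325 CPM in WT libraries. Pancreatic acinar markers summed to 6.36 to 23.6 CPM in FAAH S268D and 7.15 to 10.7 CPM in WT, and intestinal markers to 80.9 to 211 CPM in FAAH S268D and 109 to 162 CPM in WT.

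Sex-biased and growth hormone-regulated genes divided the FAAH S268D group. The list of 28 had a median of 0.45, with 20 positive and 0 past the threshold, and the median was 0.70 in library numbers 1 to 16 and 0.11 in 17 to 32. Mup7, which encodes a urinary pheromone carrier secreted by the male liver, was at 85.6, 2196 and 14610.4 CPM in FAAH S268D and 5.28, 136 and 803 CPM in WT (3.54 ± 1.16, adjusted p = 0.113). FAAH S268D replicates 1 to 4 held 3855 to 14610.4 CPM, and the other 4 held 85.6 to 537 CPM, inside the WT range. Mup1 (2.86 ± 0.98) and Mup17 (2.74 ± 0.89) did not pass either, and these genes are near-identical copies among which reads may be divided. Hsd3b5, a male-specific steroid dehydrogenase of mouse liver named after its values were seen, held 7.82 to 109 CPM in FAAH S268D replicates 1 to 4, 0.113 to 0.392 CPM in replicates 5 to 8 and at most 2.80 CPM in WT. Ghr, the growth hormone receptor, did not pass at a positive value (0.35 ± 0.09, adjusted p = 0.0782). FAAH S268D replicates 1 to 4 are thus the same libraries that stood apart on the first principal component, and all 4 carry library numbers from 1 to 16. Replicate 5 also carries such a number (14), but lay at -22.1 on that component and had a score of -0.53 on this list. Replicates 1 to 4 were not alike on every list. The score of lipid-associated macrophage genes was 0.04 in replicate 1 and -1.65 to -1.19 in replicates 2 to 4. Replicate 1 held 3851388 counts and replicates 2 to 4 held 22230002 to 25794168, and the part of depth or of library number in these values was not tested.

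**Figure D4:**
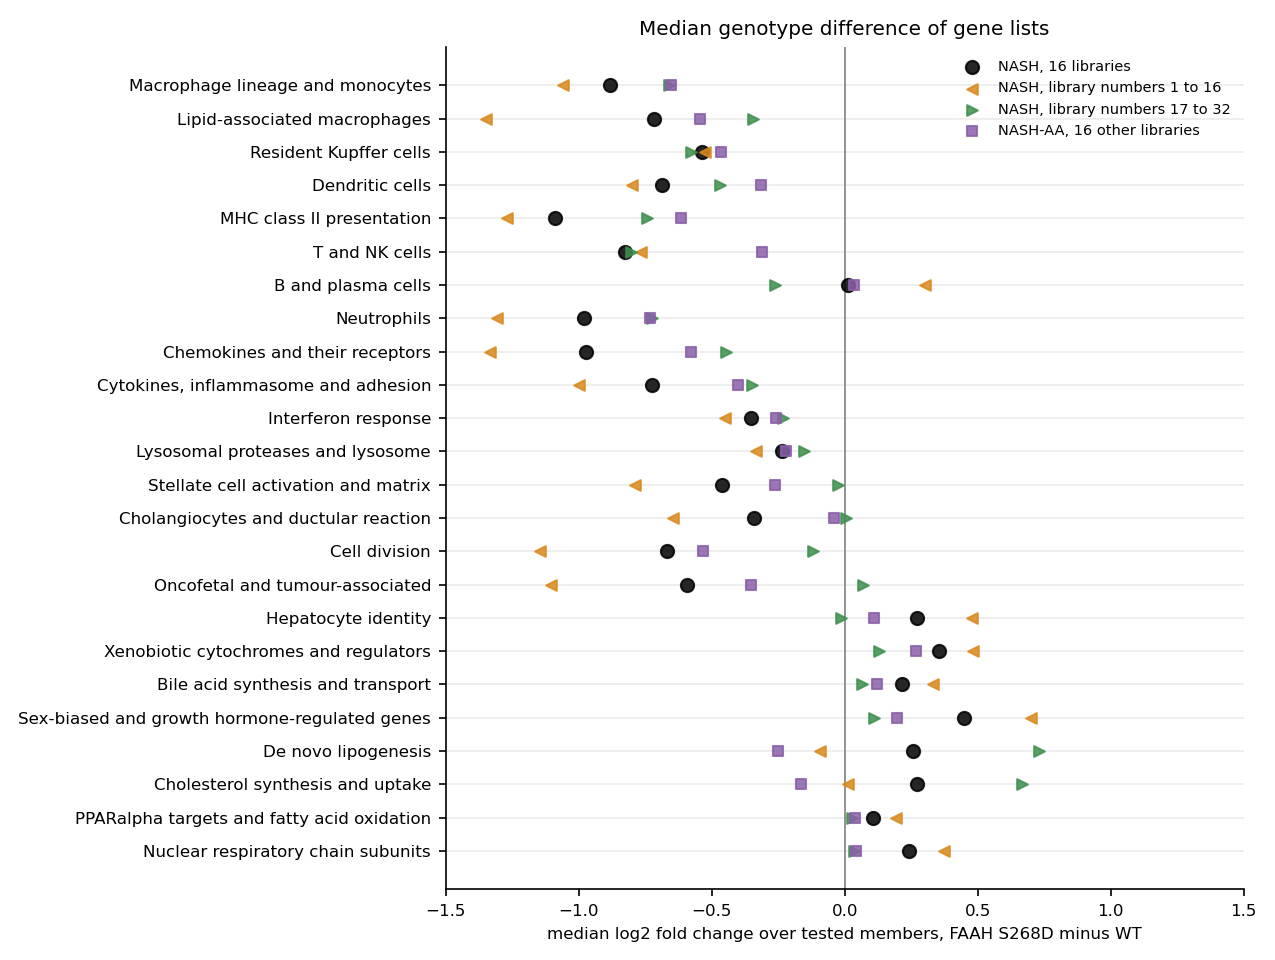
Median log2 fold change (FAAH S268D minus WT) over the tested members of each list, on NASH in all 16 libraries and within each range of library numbers, and on NASH-AA in its own 16 libraries. Leukocyte lists other than B cells lie left of 0 in all 4 sets, and the lipogenesis and cholesterol lists lie left of 0 on NASH-AA and right of 0 in the 16 libraries on NASH.

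The same contrast on NASH-AA shares no library with the one on NASH. Of the 67 genes that passed on NASH, 64 could be tested there, all 64 had the same sign and 47 passed (percent called over all genes 4.44%, 626 of 14104). That share was 1.91% without FAAH S268D NASH-AA replicate 2 and 9.18% without replicate 3. Among all genes tested on both diets, 68.6% had the same sign. Of the genes near Faah 33 of 35 passed on both diets, and of those elsewhere 14 of 29. Read the other way, 47 of the 626 genes that passed on NASH-AA (7.51%) passed on NASH. Cep85 was -1.27 ± 0.15 on NASH-AA (adjusted p = 0.000127) and Tlr12 -2.45 ± 0.26 (adjusted p = 7.44e-05). Csad was -1.17 ± 0.16 (adjusted p = 0.000688), whereas Myc was -1.01 ± 0.43 and did not pass (adjusted p = 0.184).

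For the leukocyte lists other than B and plasma cells the medians on NASH-AA were nearer to 0 than on NASH, which is a description without a test. The macrophage and monocyte list had -0.65 with 16 of 24 lower (2.75% of all genes were lower there), and MHC class II presentation -0.61 with 3 of 11 lower. Cd68 was -0.70 ± 0.15 there and passed (adjusted p = 0.0159), as did Ccl2 (-1.33 ± 0.25, adjusted p = 0.00953). De novo lipogenesis and cholesterol synthesis had medians of -0.25 and -0.17. Apoa4 was -1.47 ± 0.25 on NASH-AA and passed (adjusted p = 0.00555), beside -0.41 ± 0.45 on NASH.

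Whether the genotype difference itself differed between diets was tested by the interaction over all 32 libraries. With limma-voom 0 of 14902 genes passed (0%), and 628 (4.21%) had an unadjusted p under 0.05. The smallest adjusted p of the interaction among the 67 genes was 0.906. A p that misses the threshold does not show that the differences were equal.

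**Figure D5:**
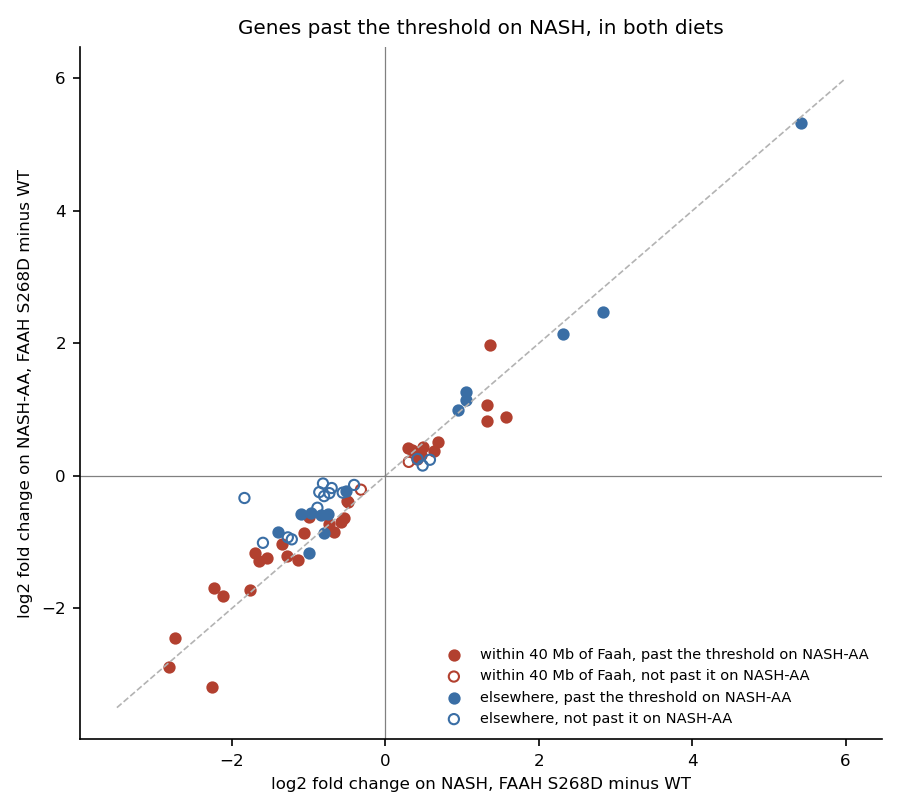
Log2 fold change (FAAH S268D minus WT) on NASH-AA against that on NASH, for 63 of the 64 genes that passed on NASH and were tested on both diets (Htr1d is left out), with genes within 40 Mb of Faah in red, the rest in blue, filled where the gene also passed on NASH-AA. All points lie in the lower left or upper right part, and the dashed line marks equal values.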

How the data were processed

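Whole livers gave polyA RNA by TRIzol, and sequencing libraries came from a Tecan mRNA kit of the Universal Plus line, per the labels' protocols. The submitters' processing notes name STAR 2.7.10, Trim Galore 0.6.7 and UMI-tools 1.1.2, and the genome build GRCm38. Which program counted reads, with which annotation and strand setting, is not given in the sources used here. The deposited table holds estimated counts that the authors left unscaled, for 55487 genes, and 0 of its columns belonged to other samples.

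Decimal values had been altered in the deposited table. Of 1775584 cells, 1559984 were whole numbers, 202488 had points before groups of 3 digits, 8232 had the form of clock times, and 338 and 1558 were day fractions with 1 or 2 possible originals. Of all cells, 52450 did not read as a plain number. Decimal values were restored by fixed rules, the last group of 3 digits being read as decimals, and rounded to whole numbers. For 1558 cells with 2 possible originals, the one nearer to the gene's depth-scaled median was taken. The unit was therefore recorded as other than counts, and limma-voom (limma 3.58.1, R 4.3.3) was used in place of a count model.

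The fit took the 16 libraries of both groups with a prior count of 0.5. TMM factors came from own code, which trims 30% by log ratio and 5% by mean level. Genes needed the CPM of 10 counts in a median library in at least 8 libraries and 15 counts in total. In counts simulated for this comparison (14222 genes), 77 of the 100 genes given a 2-fold change were called and 88 of the 100 given a 4-fold change, and 13 of the 178 calls were false. Each gene was drawn on its own with 1 spread for both groups, so differences that many genes share within a library were absent. The simulation therefore does not give the share of true changes found in these libraries. Depth was 3851388 to 26662506 counts, and counting error is largest in the shallowest library. Positions are from GENCODE M21, in which 55227 identifiers were found.

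The comparison, the stretch of 40 Mb around Faah, the 50 gene lists (1050 symbols, 4 not in the table) and the rule for named genes were chosen with earlier results of these data known. The rule took Faah, 21 landmark genes and up to 4 members of each list by unadjusted p. It also took the 12 largest and 6 smallest-p genes in each direction among those past the threshold, if their mean reached 1 CPM and at least 6 of 8 libraries of each group lay on their own side. Which of these genes the text prints was decided with their values in view. Lists are described by counts and medians, without a test. The alternatives were other scalings and filters, limma-trend, sample quality weights, all 32 libraries, a replicate block, the library number, the other reading of the restored cells and leaving out libraries.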

Additional observations from a re-analysis of the deposited data

Results flagged for a closer look

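For the 95 genes named in the report, the gap between the highest or lowest library and its nearest neighbour was compared with the range of its group of 8, which made 190 tests. In 21 cases the gap exceeded the share of the range that chance reaches in about 1 group in 20 (0.526 for 8 libraries). No cause was tested.

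WT NASH replicate 5 was set apart upward in 5 cases: Faah at 190.2 CPM, Cyp4a14 at 589 CPM, Ghr at 439.7 CPM, Pm20d1 at 143 CPM and Sytl1 at 12.8 CPM. FAAH S268D NASH replicate 5 stood out upward for Fblim1 at 8.57 CPM, Krt19 at 4.94 CPM and Sqle at 6.32 CPM. FAAH S268D NASH replicate 1, the shallow library, stood out upward for Hdac1 at 24.6 CPM and Hdac1-ps at 2.89 CPM and downward for Slc6a6 at 56.2 CPM. FAAH S268D NASH replicate 3 was far from its group for Mup7 at 14610.4 CPM, Mup17 at 3607 CPM and Cyp1a2 at 749 CPM, replicate 4 for Cyp4a14 at 832 CPM and replicate 8 for Csad at 143 CPM. Among the other WT libraries, replicate 7 stood out for Saa1 at 955 CPM, replicate 3 for Enpp6 at 4.41 CPM and Hsd3b5 at 2.80 CPM and for Fabp4 at 45.7 CPM, and replicate 1 for Utp11 at 17.1 CPM.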

How the results depend on the processing

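The 67 genes that passed on NASH (23 higher, 44 lower) were recounted under each alternative. All 32 libraries gave 1371 (432 higher, 939 lower), sample quality weights 1341 (436 higher, 905 lower), the library number term 44 (17 higher, 27 lower), numbers 1 to 16 alone 12 (5 higher, 7 lower), numbers 17 to 32 alone 2 (1 higher, 1 lower), and the stricter filter 41 (14 higher, 27 lower). Without FAAH S268D NASH replicates 1 and 3, 40 passed (14 higher, 26 lower). Total counts gave 52 (11 higher) and moved the median log2 fold change of all genes to -0.14. Upper quartile factors gave 52, no filter 67 with 52 of them shared, median-of-ratios factors the same 67, limma-trend 77 and the other reading of the restored cells 68. Leaving out 1 library gave 34 to 1334 genes on NASH (12 to 337 higher, 21 to 997 lower), and 13 of 16 libraries moved the count by over 1.5 times. FAAH S268D replicates 6 and 8 and WT replicate 3 did not. On NASH-AA, where 4.44% of genes passed, the range was 1.91% to 9.18%, and 11 of 16 libraries moved the count by over 1.5 times. The genotype by diet difference gave 0 genes under the alternatives run for it. Fits on fewer libraries have fewer degrees of freedom by construction, and the cause of the higher counts was not tested.

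With a replicate block 21 genes passed (10 higher, 11 lower), 19 of them among the 67, and 2.91% of genes passed with it on NASH-AA. Same-numbered libraries did not consistently deviate together, with correlations from -0.46 to 0.35, and 3 of 8 correlated best with their own number. These values do not settle whether the number pairs the libraries.

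Of 35 named genes past the threshold 0 changed sign, and 27 still passed with the library number term and 15 with the block. Reversed values were seen for genes that had not passed. They were 0.65 for Apoa4, -0.0002766 for Arg1, -0.15 for Cdo1, 0.14 for Col1a1, -0.53 for Cyp7a1, 0.15 for Krt19 and 0.83 for Sqle in numbers 17 to 32, and -0.30 for Fasn, -0.32 for Plin2 and -0.22 for Scd1 in numbers 1 to 16. Total counts gave -0.087 for Cyp4a14 and -0.12 for Plin2, the block -0.12 for Cyp4a14, and quality weights 0.044 for Krt19. Without replicates 1 and 3, Krt19 was 0.072 and Sqle 0.12. Leaving out 1 library gave a range that crossed 0 for Cyp4a14 (-0.31 to 0.44), Krt19 (-0.31 to 0.14), Plin2 (-0.058 to 0.22), Scd1 (-0.0041 to 0.39) and Sqle (-0.60 to 0.11). The cause was not tested. Of the list medians, 18 moved by more than the spread of list scores, 12 within a range of library numbers and 6 with total counts. FAAH S268D NASH replicate 1, the shallowest library, limits precision for genes near 1 CPM.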
